A study of Homo sapiens with 36 samples.

Results

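DNA damage checkpoint and repair genes were followed in human U2OS osteosarcoma cells in which E2F1 was switched on after siRNA against the transcription factor subunit NFYB or a control siRNA. The set was given as 37 named genes, and all probe sets that the array annotation assigns to 1 of these genes alone were collected. A gene was read from its brightest probe set, by mean log2 signal across the 36 arrays, which gave 34 measured genes, of 11963 genes with such a probe set. BRCA2 and FANCA were not matched in the annotation used here, and PMS2 was matched only on probe sets shared with another gene, so these 3 were not analysed here. The cells were a stable line made by retroviral infection and puromycin selection, in which ER-HA-E2F1, a fusion of E2F1 with the estrogen receptor, enters the nucleus when hydroxytamoxifen (OHT) is added. Each culture received 1 of 4 siRNAs, either an NFYB siRNA (from Ambion or from Dharmacon) or a negative control siRNA (from Dharmacon or from Sigma). Starvation for 24 h began 18 h after transfection, and RNA was then taken after 0, 4 or 8 h of 80 nM OHT from 3 biological replicates of each of the 12 conditions. With the siRNAs of an arm pooled, 6 arrays with NFYB siRNA stood against 6 arrays with control siRNA at each time. All cultures carried ER-HA-E2F1 and were starved, and every array of 4 h or 8 h had OHT, so that E2F1 activity, OHT itself and the further hours of starvation cannot be told apart in the comparisons over time.

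The DNA damage response starts with proteins that detect broken or single-stranded DNA and activate the kinases ATM and ATR, which pass the signal to CHEK2 and CHEK1 and so hold the cell cycle. Repair is divided among pathways: homologous recombination copies an intact sister strand, the Fanconi anemia pathway clears links between strands, mismatch repair corrects replication errors, and end joining seals broken ends directly. Many of these genes are expressed with the cell cycle, and E2F1 is known as an activator of genes for DNA replication and repair. NFYB is a subunit of NF-Y, the factor that binds the CCAAT box of many promoters.

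Signals were MAS5 intensities in arbitrary units, scaled on each array to a trimmed mean of 500, and the medians of the arrays lay between 100.9 and 120.4. Arrays of the same condition correlated at r = 0.951 to 0.962 on the log2 scale over all probe sets. NFYB itself, read first as a check of the labels, had signals (lowest, median and highest of 6 arrays) of 74.1, 117 and 187 with NFYB siRNA and 579, 654 and 717 with control siRNA at 8 h. At 0 h it had 53.9, 66.8 and 81.7 with NFYB siRNA and 161, 191 and 203 with control siRNA, and at 4 h 57.0, 118 and 159 with NFYB siRNA and 389, 446 and 491 with control siRNA. The arms did not overlap, and the log2 fold changes for knockdown were -1.50 at 0 h, -2.03 at 4 h and -2.44 at 8 h. The E2F1 target CCNE1 was 7.46-fold higher at 8 h than at 0 h of OHT in control siRNA cells. VIM, SPARC, COL1A1 and SPP1 were bright, as in a mesenchymal line. ALPL had a mean signal of 103, and RUNX2 and COL1A2 were dim, at 16.5 and 23.5. Of the 11 leukocyte, epithelial and endothelial markers measured, EPCAM alone had a mean signal above 100, at 336.

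The promoters of the members were searched for the letters that NF-Y and E2F factors bind, and 5 are printed. They are the members that rose with an E2F site (MSH6, EXO1 and TOPBP1), the member that fell most (FANCF), and MDC1. MDC1 fell with OHT and was called higher at 8 h with the NFYB siRNAs pooled, though not with the Ambion siRNA alone. All 5 were thus chosen by their changes in signal, MDC1 and FANCF after their values had been seen. Each window is 300 bases of RefSeq sequence (GRCh38.p14) in the direction of the gene, 250 before and 50 after the annotated start, and capitals mark a CCAAT box (CCAAT, or ATTGG for the other strand) or an E2F site (TTTCCCGC, TTTCGCGC, TTTGCCGC or TTTGGCGC, or its reverse complement).
MSH6: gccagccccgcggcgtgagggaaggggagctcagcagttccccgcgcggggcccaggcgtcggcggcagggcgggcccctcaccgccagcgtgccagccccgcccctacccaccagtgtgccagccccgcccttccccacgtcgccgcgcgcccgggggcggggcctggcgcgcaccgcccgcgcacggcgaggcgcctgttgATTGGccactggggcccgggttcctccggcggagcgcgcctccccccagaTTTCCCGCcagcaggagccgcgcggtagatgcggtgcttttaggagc
EXO1: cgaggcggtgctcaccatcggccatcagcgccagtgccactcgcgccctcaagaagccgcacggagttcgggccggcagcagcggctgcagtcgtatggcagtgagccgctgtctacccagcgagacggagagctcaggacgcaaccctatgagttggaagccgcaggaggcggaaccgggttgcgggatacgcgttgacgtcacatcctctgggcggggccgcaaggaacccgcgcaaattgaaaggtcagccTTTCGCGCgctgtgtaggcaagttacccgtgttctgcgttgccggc
TOPBP1: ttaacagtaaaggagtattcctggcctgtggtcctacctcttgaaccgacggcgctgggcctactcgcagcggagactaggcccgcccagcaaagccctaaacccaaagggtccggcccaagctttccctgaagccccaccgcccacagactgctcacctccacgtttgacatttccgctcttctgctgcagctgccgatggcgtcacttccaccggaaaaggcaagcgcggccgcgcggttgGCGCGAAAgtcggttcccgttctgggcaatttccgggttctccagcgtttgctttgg
FANCF: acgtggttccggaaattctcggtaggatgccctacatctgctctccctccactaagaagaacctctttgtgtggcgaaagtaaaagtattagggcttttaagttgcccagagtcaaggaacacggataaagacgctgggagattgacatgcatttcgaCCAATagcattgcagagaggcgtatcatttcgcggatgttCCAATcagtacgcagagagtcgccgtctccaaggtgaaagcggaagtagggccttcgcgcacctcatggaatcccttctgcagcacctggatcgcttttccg
MDC1: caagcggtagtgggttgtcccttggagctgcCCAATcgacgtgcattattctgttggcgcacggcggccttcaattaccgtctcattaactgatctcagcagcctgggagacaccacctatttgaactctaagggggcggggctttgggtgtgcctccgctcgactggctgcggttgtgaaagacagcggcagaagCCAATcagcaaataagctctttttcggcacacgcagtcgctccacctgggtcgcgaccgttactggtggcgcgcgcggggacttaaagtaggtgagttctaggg
The window of MSH6 (chr2:47782895-47783194, plus strand) held a CCAAT box at -47 and an E2F site at 4, counted from the start as 1 and giving the leftmost base. That of EXO1 (chr1:241847954-241848253, plus strand) held an E2F site at 5 and that of TOPBP1 (chr3:133661892-133662191, minus strand) one at -7, both without a CCAAT box. FANCF (chr11:22625774-22626073, minus strand) had CCAAT boxes at -92 and -52, and MDC1 (chr6:30717232-30717531, minus strand) at -219 and -54, with no E2F site in either. Of the 30 members with a window in the table, 14 (46.7%) held a CCAAT box and 6 (20.0%) an E2F site, against 34.6% and 3.3% of all 35116 windows. Only the first window listed for a member's gene was searched. The 35116 windows were not merged by gene, so these shares are not of the same unit. For RAD52, MRE11, CHEK1, EXO1 and others the start used lay inside the gene, and other starts were not searched. These matches are descriptions of letters in the window and were not tested.

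In control siRNA cells, OHT for 8 h left 20 of the 34 members lower and 6 higher than at 0 h, and 8 passed the test in neither direction, where 29.6% of all 22215 probe sets were lower and 20.3% were higher. The 6 that rose were RAD1, MSH6, FANCE, EXO1, FANCL and TOPBP1, and the greatest decreases were those of FANCF, ATR, RAD50 and XRCC4. A change is called here where the adjusted p of limma, after Benjamini-Hochberg correction across every probe set tested, is under 0.05, and all fold changes are log2 ratios of signal. The lower members were 58.8% of the set, while 34.3% of all genes read from their brightest probe set were lower, and the median change was -0.48 in the members and -0.16 over those genes. In bulk RNA, fewer cells of a kind and less RNA per cell cannot be told apart.

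All 4 kinases of the damage signal fell. ATR, which responds to single-stranded DNA at stalled forks, had control siRNA signals (lowest, median and highest of 6 arrays) of 649, 699 and 885 at 0 h, 339, 400.3 and 437 at 4 h, and 215, 252 and 279 at 8 h. The ranges of the 3 times did not overlap, and the change at 8 h was -1.55 ± 0.089 (SE, adjusted p = 1.54e-17), or 2.92-fold lower. Its effector CHEK1 had 552, 732 and 764 at 0 h, 490.4, 528 and 603 at 4 h, and 326, 379 and 484 at 8 h, a change of -0.85 ± 0.10 (SE, adjusted p = 3.39e-09). CHEK1 was lower on all 6 arrays of 8 h than on any array of the earlier times. ATM, which responds to broken ends, had medians of 289, 211 and 191 at 0, 4 and 8 h and a change of -0.61 ± 0.12 (SE, adjusted p = 4e-05). CHEK2, the effector of ATM, had medians of 307, 219.7 and 184 and a change of -0.67 ± 0.10 (SE, adjusted p = 9.34e-07). All 4 kinases were already lower at 4 h, with changes of -0.88 (ATR), -0.38 (CHEK1), -0.47 (ATM) and -0.47 (CHEK2). Between 4 h and 8 h, ATR fell by 0.67 and CHEK1 fell by 0.47, while ATM (-0.14, adjusted p = 0.49) and CHEK2 (-0.20, adjusted p = 0.204) passed no test.

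The ring-shaped checkpoint clamp, which marks damaged sites for ATR, is built of RAD9A, RAD1 and HUS1, and its subunits moved in opposite directions. RAD1 had control siRNA signals of 1082, 1261 and 1442 at 0 h, 1479.8, 1864 and 1952 at 4 h, and 1772, 2097 and 2486 at 8 h. Its change at 8 h was 0.77 ± 0.11 (SE, adjusted p = 2.69e-07), or 1.70-fold, the greatest increase among the members, and the arrays of 8 h and 0 h did not overlap. RAD9A had 254, 288 and 324 at 0 h, 197, 234 and 349.6 at 4 h, and 107, 134 and 169 at 8 h, a change of -1.12 ± 0.14 (SE, adjusted p = 1.24e-08). It had no call at 4 h (-0.23, adjusted p = 0.218), and between 4 h and 8 h it fell by 0.90, so that all 6 arrays of 8 h lay below those of both earlier times. HUS1 had medians of 786, 691 and 574 and a change of -0.44 ± 0.11 (SE, adjusted p = 0.00128), with overlapping arrays. Only 1 of the 3 probe sets of HUS1 was called lower, and the highest change among them was 0.25. RAD17, the loader of the clamp, had medians of 954, 821 and 726 and a change of -0.38 (adjusted p = 5.39e-05). TOPBP1, which activates ATR at the clamp, had the smallest increase, with signals of 1196, 1263 and 1432 at 0 h, 1283, 1452 and 1591 at 4 h, and 1343, 1433 and 1717 at 8 h and a change of 0.17 ± 0.067 (SE, adjusted p = 0.0288). Its groups overlapped, and the call was lost with either control siRNA alone (adjusted p = 0.156 and 0.108) or without 1 array of 4. These were Dharmacon control replicate 1 of 8 h (0.13, adjusted p = 0.116) or of 0 h (0.16, adjusted p = 0.0601), and Sigma control replicate 2 (0.17, adjusted p = 0.0514) or 3 (0.15, adjusted p = 0.0743) of 0 h. Of the adaptors at broken ends, MDC1, which binds the phosphorylated histone beside a break, had 816, 890.3 and 975 at 0 h, 587, 599.7 and 608 at 4 h, and 392, 427 and 451 at 8 h. The 3 times of MDC1 did not overlap, and its change was -1.07 ± 0.13 (SE, adjusted p = 3.91e-09). TP53BP1, which restrains trimming of the ends, had medians of 571, 418 and 282 and a change of -0.90 ± 0.17 (SE, adjusted p = 2.78e-05), and 1 array of 0 h, at 278, lay within the range of 8 h.

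**Figure D1:**
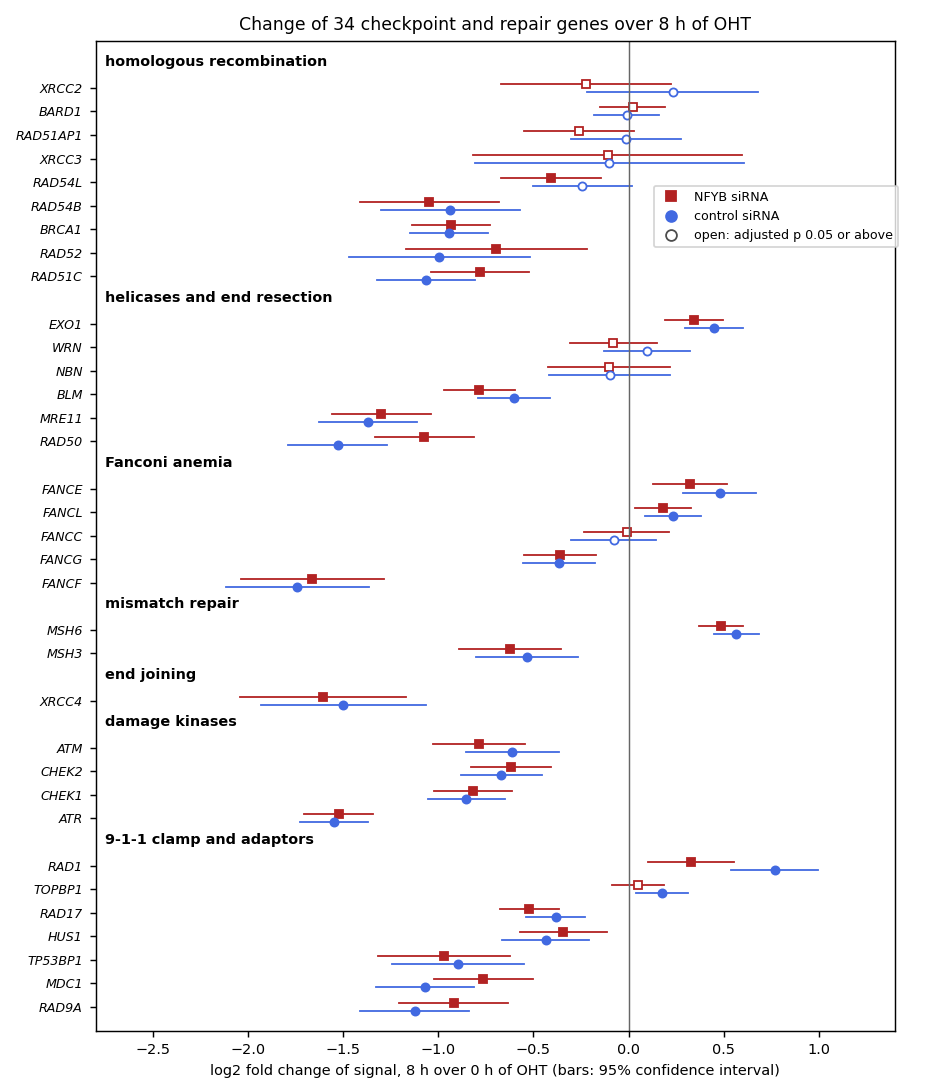
Log2 fold change of signal between 8 h and 0 h of OHT for the 34 members, grouped by role, with NFYB siRNA (red squares) and control siRNA (blue circles), bars giving the 95% confidence interval and filled symbols an adjusted p under 0.05. In control siRNA cells 20 members lie left of 0 and 6 right of it with filled symbols, and FANCF is farthest left at -1.74.

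Among the proteins that sense and trim broken ends, MRE11 and RAD50 fell on their brightest probe sets, while that of their partner NBN passed no test. Both probe sets of RAD50 were lower, but the other of MRE11 gave 0.70 without a call. Of the 4 probe sets of NBN, 2 were called higher. RAD50, the structural arm of the complex, had control siRNA signals of 347, 406 and 470.1 at 0 h, 189, 272 and 319.5 at 4 h, and 112, 141 and 162 at 8 h. None of its times overlapped, and its change was -1.53 ± 0.13 (SE, adjusted p = 6.95e-13), or 2.88-fold lower. The nuclease MRE11 had 519, 617 and 822 at 0 h, 398, 420.1 and 572 at 4 h, and 203, 248 and 301 at 8 h. All 6 arrays of 8 h lay below those of both earlier times, with a change of -1.37 ± 0.13 (SE, adjusted p = 9.38e-12), and -0.84 between 4 h and 8 h. NBN, which links the complex to ATM, had medians of 1381, 1241 and 1309 and a change of -0.10 (adjusted p = 0.646) with a 95% interval of -0.42 to 0.22. EXO1, an exonuclease that lengthens the trimmed ends and also serves mismatch repair, had 341, 378 and 400.1 at 0 h, 376, 411 and 433 at 4 h, and 450.0, 516 and 538 at 8 h. It gave 0.13 (adjusted p = 0.171) at 4 h and rose by 0.31 between 4 h and 8 h, so that the arrays of 8 h lay above all those of both earlier times and the change at 8 h was 0.45 ± 0.075 (SE, adjusted p = 3.68e-06). The helicase BLM fell early, with medians of 544, 379 and 367 and changes of -0.63 at 4 h and -0.60 ± 0.093 (SE, adjusted p = 7.9e-07) at 8 h. WRN, a helicase of the same family, had medians of 254, 271 and 285 and a change of 0.10 (adjusted p = 0.522).

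In homologous recombination 4 of 9 members fell, where 34.3% of all genes were lower, and the other 5 passed no test. BRCA1, the tumor suppressor that directs breaks to this pathway, had control siRNA signals of 625, 769 and 902 at 0 h, 488, 520.2 and 605 at 4 h, and 345, 398 and 468 at 8 h. It stepped down at both times without overlap, and its change at 8 h was -0.94 ± 0.10 (SE, adjusted p = 3.32e-10). BARD1, its obligate partner in the ubiquitin ligase, had medians of 448, 441 and 449 and gave -0.011 (adjusted p = 0.929), with a 95% interval of -0.18 to 0.16. RAD51C, which acts in strand exchange, had 1552, 1745 and 2085 at 0 h, 893, 1257 and 1587 at 4 h, and 673, 866 and 1059 at 8 h. The arrays of 8 h and 0 h did not overlap, and its change was -1.06 ± 0.13 (SE, adjusted p = 3.82e-09). RAD54B, a motor protein that aids strand exchange, had medians of 97.1, 74.2 and 56.7 and a change of -0.94 ± 0.18 (SE, adjusted p = 3.01e-05). RAD52, which anneals single strands, was dim, with medians of 73.5, 42.7 and 37.4, and its change was -0.99 ± 0.23 (SE, adjusted p = 0.000439). The members without a call were RAD51AP1 (-0.013, adjusted p = 0.95), a cofactor of strand invasion, RAD54L (-0.24, adjusted p = 0.12), a motor protein like RAD54B, and the recombination genes XRCC2 (0.23, adjusted p = 0.421) and XRCC3 (-0.10, adjusted p = 0.843). XRCC2 and XRCC3 were also dim, with medians of 68.7, 73.1 and 80.2 and 28.5, 31.8 and 26.5, and their 95% intervals reached -0.22 to 0.68 and -0.81 to 0.60.

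The Fanconi anemia core complex split between rising and falling subunits. FANCF, an adaptor subunit, had control siRNA signals of 135, 191 and 319 at 0 h, 54.8, 66.1 and 82.3 at 4 h, and 46.3, 61.1 and 83.9 at 8 h. All 6 arrays of 4 h were already below those of 0 h (-1.62), and its change at 8 h, -1.74 ± 0.18 (SE, adjusted p = 2.73e-10) or 3.34-fold lower, was the greatest among the members. FANCG, another core subunit, had medians of 813, 705 and 594 and a change of -0.36 ± 0.093 (SE, adjusted p = 0.00112). FANCE, the subunit that contacts FANCD2, had 238, 272 and 337 at 0 h, 298, 349.7 and 414 at 4 h, and 334, 384 and 417 at 8 h, and rose by 0.48 ± 0.095 (SE, adjusted p = 4.76e-05). The highest array of 0 h, at 337, just exceeded the lowest of 8 h, at 334. FANCL, the ubiquitin ligase of the complex, had signals of 1201, 1255 and 1366 at 0 h, 1190.3, 1358 and 1452 at 4 h, and 1384, 1455 and 1634 at 8 h. The arrays of 8 h lay above all those of 0 h, and it rose by 0.23 ± 0.073 (SE, adjusted p = 0.00635), a call that was lost with either control siRNA alone. FANCC passed no test, with medians of 300.1, 269 and 292 and a change of -0.078 (adjusted p = 0.607).

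The mismatch repair members moved apart. MSH6, which recognises single mispaired bases, had control siRNA signals of 2746, 3039.9 and 3206 at 0 h, 4971, 5132 and 5678 at 4 h, and 3965, 4454 and 5135 at 8 h. Its arrays of 4 h lay wholly above those of 0 h, with a change of 0.80 ± 0.057 (SE, adjusted p = 1.32e-14). Between 4 h and 8 h it fell by 0.24 ± 0.057 (SE, adjusted p = 0.0027), and at 8 h its change against 0 h was 0.57 ± 0.057 (SE, adjusted p = 8.42e-11). MSH3, which recognises larger loops, had medians of 352, 297 and 229 and a change of -0.53 ± 0.13 (SE, adjusted p = 0.000749), and its arrays of 8 h lay below all those of 0 h. XRCC4, the scaffold of the ligase in end joining, had 322, 412 and 459 at 0 h, 189, 219.6 and 231 at 4 h, and 116, 139 and 157 at 8 h. Its 3 times did not overlap, and its change was -1.50 ± 0.21 (SE, adjusted p = 1.83e-07), or 2.82-fold lower.

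**Figure D2:**
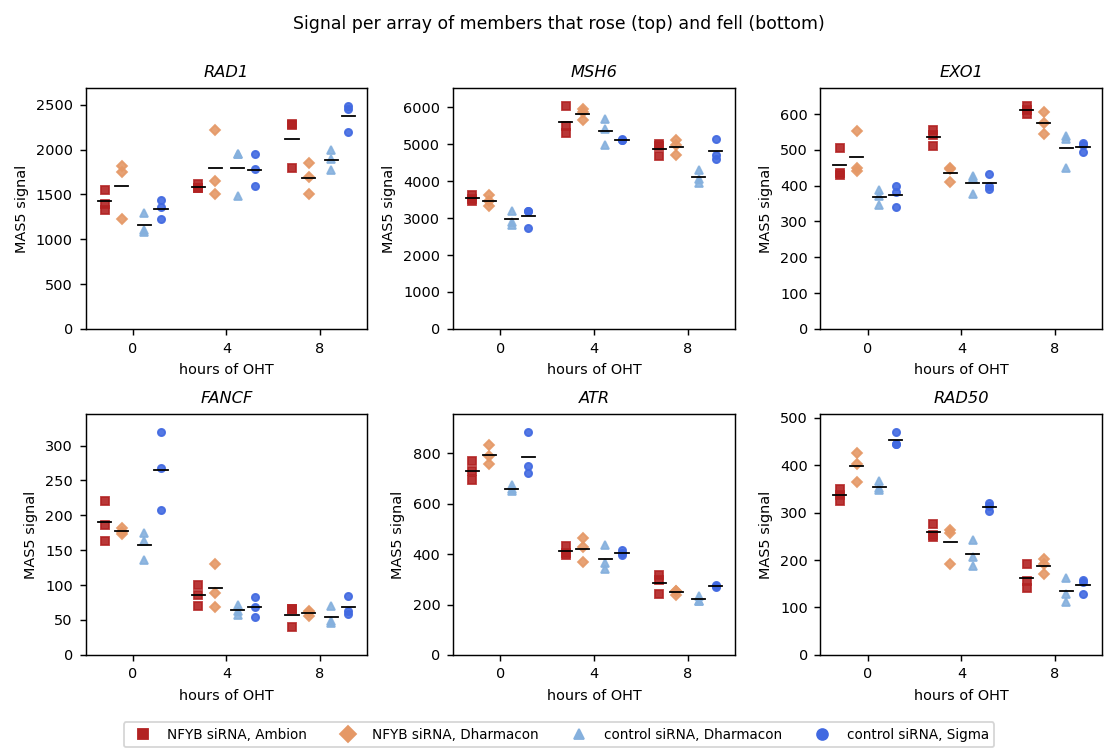
MAS5 signal (vertical axis, arbitrary units) per array against hours of OHT for RAD1, MSH6 and EXO1, which rose, and FANCF, ATR and RAD50, which fell, with symbols for the 4 siRNAs and a short line for the mean of 3 replicates. MSH6 is highest at 4 h (median 5132 in control siRNA cells) and FANCF is near its final level by 4 h (median 66.1).

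The timing of the members was mixed. At 4 h, 15 members were lower and 3 higher than at 0 h, the latter being MSH6, RAD1 and FANCE. Of all genes read from their brightest probe set, 27.8% were lower and 17% higher, and of all probe sets 23.3% and 16.1%. Between 4 h and 8 h, 11 members fell and 1, EXO1, rose, where 10.1% of all probe sets were lower and 7.13% higher. Read as genes in the same way, 12.5% were lower and 8.08% higher. Of the 20 members lower at 8 h, MRE11, RAD50, ATR, CHEK1, BRCA1, RAD51C, XRCC4 and MDC1 were lower at 4 h and lower again between 4 h and 8 h. RAD9A and TP53BP1 were called only in the second interval and at 8 h, with changes at 4 h of -0.23 (adjusted p = 0.218) and -0.29 (adjusted p = 0.185). FANCF, BLM, ATM, CHEK2, RAD52, RAD54B and RAD17 were called at 4 h and not between 4 h and 8 h. In that second interval FANCF and BLM gave -0.12 (adjusted p = 0.75) and 0.025 (adjusted p = 0.903). FANCG, HUS1 and MSH3 were called at 8 h against 0 h and in neither interval. Comparisons at 4 h and 8 h share the arrays of 0 h.

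The same comparison in cells with NFYB siRNA gave 21 members lower and 5 higher at 8 h than at 0 h, where 29.4% of all probe sets were lower and 18.5% higher. Of all genes read from their brightest probe set, 33.7% were lower and 19.6% higher. RAD54L was called lower there, at -0.41 (adjusted p = 0.00818) with NFYB siRNA against -0.24 (adjusted p = 0.12) with control siRNA. TOPBP1 was not called there, at 0.047 (adjusted p = 0.618) with NFYB siRNA against 0.17 (adjusted p = 0.0288) with control siRNA. Neither difference between the arms passed its own test (adjusted p = 0.903 and 0.832). The difference between the arms was itself tested, and no member passed in either direction with limma over 6 groups, where 0.171% of all probe sets had a higher and 0.0315% a lower response with NFYB siRNA. At an unadjusted p under 0.05, which a share of 0.05 of unchanged genes would pass by chance, 2 of the 34 members differed. The share of all probe sets under it was not computed. RAD1 had medians of 1470.2, 1594 and 1822 at 0, 4 and 8 h with NFYB siRNA and 1261, 1864 and 2097 with control siRNA, and its 8 h response differed by -0.44 (adjusted p = 0.471), with a 95% interval of -0.76 to -0.12. RAD50 had medians of 357, 255 and 182 with NFYB siRNA and 406, 272 and 141 with control siRNA. Its response differed by 0.45 (adjusted p = 0.565), with an interval of 0.085 to 0.82. These values are of the brightest probe sets, and another probe set of each gene gave less, -0.015 for RAD1 and 0.050 for RAD50. Among the kinases the differences ran from -0.18 (ATM) to 0.051 (CHEK2), with intervals of -0.52 to 0.17 and -0.25 to 0.35. When the 4 siRNAs were kept apart as 12 groups, RAD51C (0.28, adjusted p = 0.00689) and MDC1 (0.31, adjusted p = 0.00555) fell less with NFYB siRNA, where that fit called a higher response for 0.783% and a lower one for 0.522% of all probe sets. That fit sets the difference against the spread of replicates within a siRNA, and the siRNAs of an arm themselves differed for both genes, as given later.

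NFYB knockdown itself moved few members. At 0 h of OHT, 3 members were higher and 1 lower with NFYB siRNA than with control siRNA, where 1.58% of all probe sets were higher and 2% lower. At 4 h limma called none higher and 1 lower, where 1.48% of all probe sets were higher and 1.45% lower. An unadjusted p under 0.05 was found for 8 members, and the share of all probe sets under it was not computed. The fit with 12 groups called 6 higher and 1 lower at 4 h, where it called 4.99% of all probe sets higher and 5.29% lower. At 8 h, 4 were higher and 1 lower, where 2.18% of all probe sets were higher and 2.46% lower. The shares of all genes, each read from its brightest probe set, were 1.96%, 1.81% and 2.71% higher at 0, 4 and 8 h. Those lower were 2.37%, 1.77% and 2.57%. Counting members with and without a call, 25 of 34 at 0 h, 25 at 4 h and 21 at 8 h had a positive change, with medians of 0.13, 0.12 and 0.087, while the medians over all genes were -0.0022, -0.0026 and -0.014.

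With the NFYB siRNAs pooled, FANCG was lower at every time. Its signals (lowest, median and highest of 6 arrays) were 573, 611 and 651 with NFYB siRNA and 648, 813 and 870.3 with control siRNA at 0 h. The changes were -0.38 ± 0.093 (SE, adjusted p = 0.0143) at 0 h, -0.39 ± 0.093 (SE, adjusted p = 0.0116) at 4 h and -0.37 ± 0.093 (SE, adjusted p = 0.0132) at 8 h. At 4 h they were 467, 539.8 and 607 with NFYB siRNA and 599, 705 and 878 with control siRNA. At 8 h the arrays ran over 397 to 598 with NFYB siRNA and 572 to 724 with control siRNA, with overlap at each time. Both NFYB siRNAs gave a like mean at 8 h, 475 ± 108 with the Ambion and 483 ± 64.4 with the Dharmacon siRNA, against 625 ± 85.3 with the Dharmacon and 606 ± 22.5 with the Sigma control siRNA (SD, 3 arrays each). With siRNA as a random block the adjusted p at 0, 4 and 8 h became 0.0747, 0.063 and 0.066, so that the call was lost at all 3 times. With the Ambion NFYB siRNA alone no member was called lower at 0, 4 or 8 h, FANCG included. With the Dharmacon NFYB siRNA alone the call of FANCG at 4 h was lost. Without Dharmacon control replicate 2 of 8 h the change at 8 h was -0.33 (adjusted p = 0.0513). Its promoter window held neither a CCAAT box nor an E2F site.

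The members higher with NFYB siRNA were BRCA1, EXO1 and MSH6 at 0 h and RAD51C, BRCA1, BARD1 and MDC1 at 8 h. BRCA1 had 797, 976 and 1189 with NFYB siRNA and 625, 769 and 902 with control siRNA at 0 h, a change of 0.37 ± 0.10 (SE, adjusted p = 0.0288). At 8 h it had 408, 493 and 686 with NFYB siRNA and 345, 398 and 468 with control siRNA, a change of 0.38 ± 0.10 (SE, adjusted p = 0.0222). The arrays overlapped at both times, and BRCA1 gave 0.31 (adjusted p = 0.095) at 4 h. Its call at 0 h was lost without any 1 of 6 arrays of that time (replicates 1 and 2 of the Dharmacon control, 3 of the Sigma control, 3 of the Ambion NFYB, and 1 and 3 of the Dharmacon NFYB siRNA), with adjusted p of 0.0511 to 0.0895. Its call at 8 h was lost without Dharmacon control replicate 2 or 3 or Ambion NFYB replicate 3 of 8 h, with adjusted p of 0.0533 to 0.0729. BARD1, its partner, had 497, 565 and 592 with NFYB siRNA and 419, 449 and 466 with control siRNA at 8 h, without overlap, and a change of 0.31 ± 0.083 (SE, adjusted p = 0.0232). That call was lost without Dharmacon control replicate 1 (adjusted p = 0.0519) or Dharmacon NFYB replicate 1 or 2 of 8 h (adjusted p = 0.0558 and 0.0618). EXO1 had 431, 446 and 551 with NFYB siRNA and 341, 378 and 400.1 with control siRNA at 0 h, again without overlap, and changes of 0.33 ± 0.075 (SE, adjusted p = 0.00684) at 0 h and 0.23 (adjusted p = 0.075) at 8 h. MSH6 had 3317, 3483 and 3639 with NFYB siRNA and 2746, 3039.9 and 3206 with control siRNA at 0 h, without overlap, and a change of 0.22 ± 0.057 (SE, adjusted p = 0.0188), which lost its call without Dharmacon control replicate 1 (adjusted p = 0.0518) or Sigma control replicate 3 of 0 h (adjusted p = 0.0607). Its other probe sets gave -0.11 (adjusted p = 0.822) and -0.56 (adjusted p = 0.816) at 0 h. With only the groups compared in the fit, the calls at 0 h of EXO1 (adjusted p = 0.0605), BRCA1 (0.0924) and MSH6 (0.0801) were lost, as were those at 8 h of BRCA1 (0.0752), MDC1 (0.134) and FANCG (0.0565). The methods' t-test on log2 signal kept none of the knockdown calls at 0 h or 4 h and, at 8 h, that of BARD1 (adjusted p = 0.0228). CHEK2 did not pass the test, although its arrays at 0 h lay apart, with 216, 246 and 263 with NFYB siRNA and 271, 307 and 333 with control siRNA and a change of -0.34 (adjusted p = 0.0565).

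**Figure D3:**
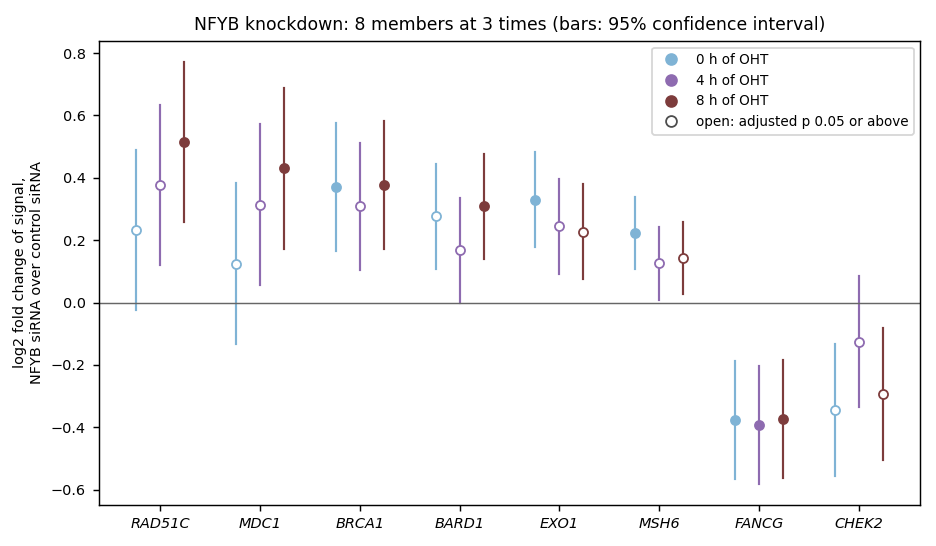
Log2 fold change of signal, NFYB siRNA over control siRNA, at 0, 4 and 8 h of OHT for 8 members, with 95% confidence intervals and filled symbols for an adjusted p under 0.05. FANCG lies near -0.38 at all 3 times, and RAD51C is highest at 8 h (0.52).

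RAD51C and MDC1 were higher with NFYB siRNA at 8 h and also differed between siRNAs of 1 arm. RAD51C had signals of 1108, 1212 and 1353 with NFYB siRNA and 673, 866 and 1059 with control siRNA at 8 h, without overlap, and a change of 0.52 ± 0.13 (SE, adjusted p = 0.0117). Its means at 8 h were 1125 ± 18.2 with the Ambion and 1321 ± 37.2 with the Dharmacon NFYB siRNA, against 712 ± 38.4 with the Dharmacon and 1022 ± 38.2 with the Sigma control siRNA (SD, 3 arrays each). The change was 0.78 against the Dharmacon control alone and 0.25 (adjusted p = 0.0371) against the Sigma control alone. With the Ambion NFYB siRNA alone it was 0.40 (adjusted p = 0.279). MDC1 had 411, 598 and 771 with NFYB siRNA and 392, 427 and 451 with control siRNA at 8 h, a change of 0.43 ± 0.13 (SE, adjusted p = 0.0417). Its means were 442 ± 33.8 with the Ambion and 744 ± 26.1 with the Dharmacon NFYB siRNA, and 427 ± 17.3 with the Dharmacon and 425 ± 30.5 with the Sigma control siRNA. The change of MDC1 was 0.054 (adjusted p = 0.837) with the Ambion siRNA alone and 0.81 (adjusted p = 8.56e-09) with the Dharmacon siRNA alone. Its call was lost without any 1 of the 6 control arrays or of the 3 Dharmacon NFYB arrays of 8 h, with adjusted p of 0.0549 to 0.141. With siRNA as a random block, RAD51C (adjusted p = 0.00362) and MDC1 (adjusted p = 0.0251) at 8 h and EXO1 (adjusted p = 0.0349) at 0 h stayed under 0.05, and the other knockdown calls did not. That block sets the same correlation, 0.16, between arrays of a siRNA for every probe set. It therefore cannot account for the larger differences between siRNAs seen for RAD51C and MDC1.

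The siRNAs of an arm were also compared with each other, averaged over the 3 times, in a comparison added after the values were seen. Between the control siRNAs, 2 members were higher and 8 lower with the Dharmacon than with the Sigma siRNA, where 10.5% of all probe sets were higher and 15.2% lower. NBN differed most, with means at 8 h of 1555 ± 27.9 with the Dharmacon and 1019 ± 70.6 with the Sigma control siRNA, and a difference of 0.69 ± 0.053 (SE, adjusted p = 5.75e-12). RAD51C differed by -0.54 ± 0.033 (SE, adjusted p = 4.83e-14), and MRE11, RAD9A, RAD50 and FANCF were lower with the Dharmacon control siRNA, with differences of -0.36, -0.36, -0.35 and -0.38. RAD51AP1 was higher, at 0.30, and ATR, BLM and RAD17 were lower, at -0.22, -0.19 and -0.16. Between the NFYB siRNAs, 4 members were higher and 4 lower with the Dharmacon than with the Ambion siRNA, where 7.33% of all probe sets were higher and 9.75% lower. XRCC4 differed by 0.84 ± 0.10 (SE, adjusted p = 7.97e-08), with means at 0 h of 744 ± 135 with the Dharmacon and 323 ± 62.6 with the Ambion siRNA. MDC1 differed by 0.54 ± 0.035 (SE, adjusted p = 3.83e-13), MRE11 and RAD51C were also higher with the Dharmacon siRNA, and RAD51AP1 (-0.35), RAD9A (-0.23), FANCC (-0.23) and BLM (-0.16) were lower.

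**Figure D4:**
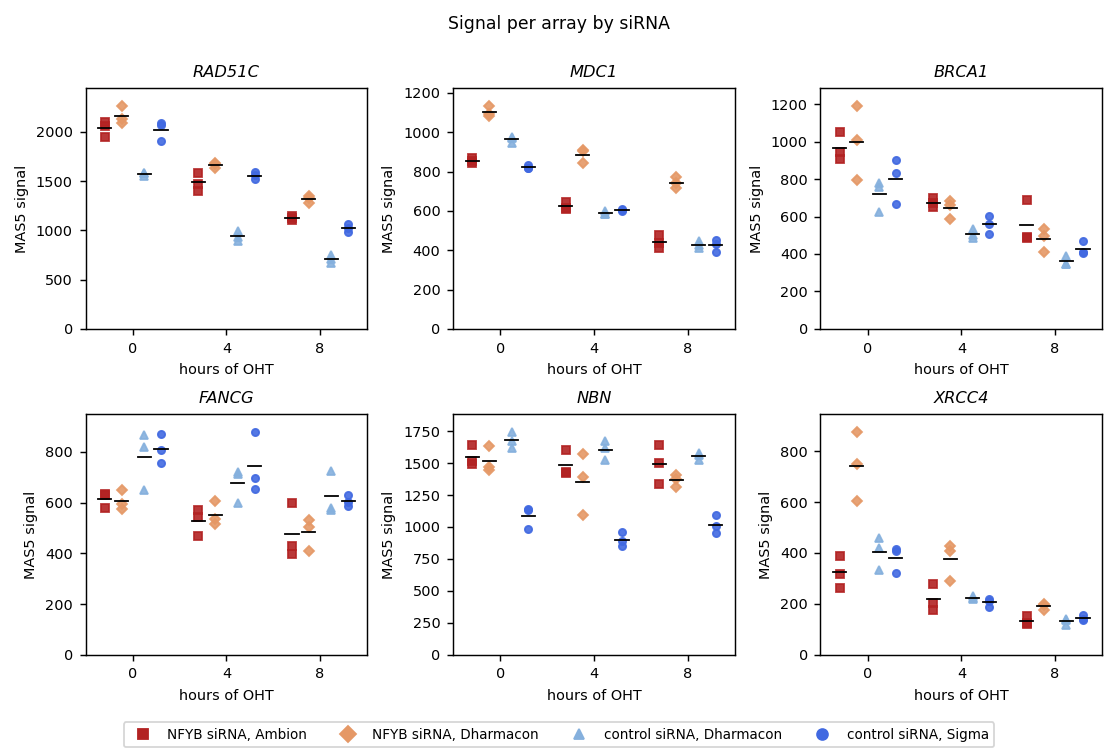
MAS5 signal (vertical axis, arbitrary units) per array against hours of OHT for RAD51C, MDC1, BRCA1, FANCG, NBN and XRCC4, with a symbol for each siRNA and a short line for the mean of 3 replicates. At 8 h MDC1 has a mean of 744 with the Dharmacon NFYB siRNA, above the other 3 siRNAs, which lie between 425 and 442.

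Where a member had several probe sets, they did not always give the same call for 8 h against 0 h in control siRNA cells. All 3 probe sets of RAD1 were higher and all 3 of ATM were lower, as were both of BRCA1, RAD51C and MDC1. NBN had a brightest probe set without a call (-0.10) and 2 of its 3 others higher, at 0.60 (adjusted p = 0.000641) and 0.31 (adjusted p = 0.0134). MRE11 had 1 other probe set, dim, at 0.70 (adjusted p = 0.259), HUS1 had 2 others at 0.25 (adjusted p = 0.487) and 0.16 (adjusted p = 0.539), and RAD52 had 2 others at -0.26 (adjusted p = 0.465) and 0.38 (adjusted p = 0.649). MSH6 was higher on a second probe set (0.48, adjusted p = 0.0125) and without a call on the third, which was dim (-0.59, adjusted p = 0.579). TP53BP1 and MSH3 each had 1 other probe set without a call, at -0.094 (adjusted p = 0.702) and -0.16 (adjusted p = 0.695), and XRCC4 was lower on 3 of 4. When all probe sets of a gene were averaged, MSH6 gave 0.15 (adjusted p = 0.685), and MRE11, RAD52, HUS1 and MSH3 also lost their calls, while NBN was called higher (0.23, adjusted p = 0.0227). The brightest probe sets of RAD1, XRCC4, XRCC2 and ATM carry the suffix with which the manufacturer marks probes that can match other transcripts. For knockdown at 8 h, RAD51C was higher on both of its probe sets, while the second of BRCA1 gave -0.014 (adjusted p = 0.978). At 0 h that probe set of BRCA1 gave -0.11 (adjusted p = 0.771), and for MDC1 the second gave 0.54 (adjusted p = 0.0527) at 8 h.

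Of the members that rose at 8 h, 3 of 6 had an E2F site in the promoter window (MSH6, EXO1 and TOPBP1) and 1 of 6 a CCAAT box (MSH6), while RAD1, FANCE and FANCL had neither. Among the 18 members with a window that fell, 10 had a CCAAT box and 1, MSH3, an E2F site. The 6 members with a window and no call also held such letters, with a CCAAT box in 3 (RAD51AP1, RAD54L and XRCC3) and an E2F site in 2 (XRCC2 and FANCC). The 10 were MDC1, FANCF, MRE11, CHEK2, CHEK1, ATM, BLM, RAD9A, TP53BP1 and XRCC4, with 3 boxes each in BLM and CHEK2. ATR, RAD50, BRCA1, RAD51C, RAD52, RAD17 and FANCG fell without either set of letters in the window searched. Of the members called higher with NFYB siRNA at 8 h, MDC1 had a CCAAT box, and RAD51C, BRCA1 and BARD1 had none. MDC1 had a mean of 744 with the Dharmacon and 442 with the Ambion NFYB siRNA at 8 h, against 427 and 425 with the control siRNAs.

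Of the 66 other repair and checkpoint genes measured, on 6 lists, 35 were lower and 11 higher at 8 h than at 0 h in control siRNA cells, where 34.3% of all genes were lower and 21.1% higher, with a median change of -0.37 in the list. Nucleotide excision repair, which removes bulky lesions, had 10 of 14 lower, led by the damage sensors XPC (-1.85, adjusted p = 4.31e-14) and DDB2 (-1.52, adjusted p = 2.38e-12) and the nuclease ERCC5 (-1.98, adjusted p = 1.7e-11). Base excision repair had 8 of 15 lower and 1 higher, with APEX1 (-1.0), which cuts at sites that lack a base, the polymerase POLB (-0.73) and the glycosylase NTHL1 (-1.08) at the smallest adjusted p. End joining had 7 of 10 lower and 1 higher, the nuclease DCLRE1C (1.64, adjusted p = 3.97e-14), against decreases of APTX (-0.79), which cleans blocked ends, and XRCC5 (-0.55), which binds ends. The other mismatch repair genes PMS1 (-0.65) and MLH3 (-0.65) fell, 2 of 3 on that list. The further recombination and Fanconi genes were divided, 5 lower and 4 higher of 13, and so were the subunits of RPA, the coat of single-stranded DNA: RPA2 (-0.89) and RPA3 (-0.73) fell and RPA1 (0.63) rose. The remaining checkpoint genes had 5 of 11 higher and 3 lower, and the highest were the phosphatase CDC25A (2.18, adjusted p = 1.36e-14), which opposes the checkpoint kinases, the cell cycle inhibitor CDKN1A (1.63, adjusted p = 3.73e-16) and BRCC3 (1.52, adjusted p = 1.85e-14), a deubiquitinase that acts beside BRCA1.

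**Figure D5:**
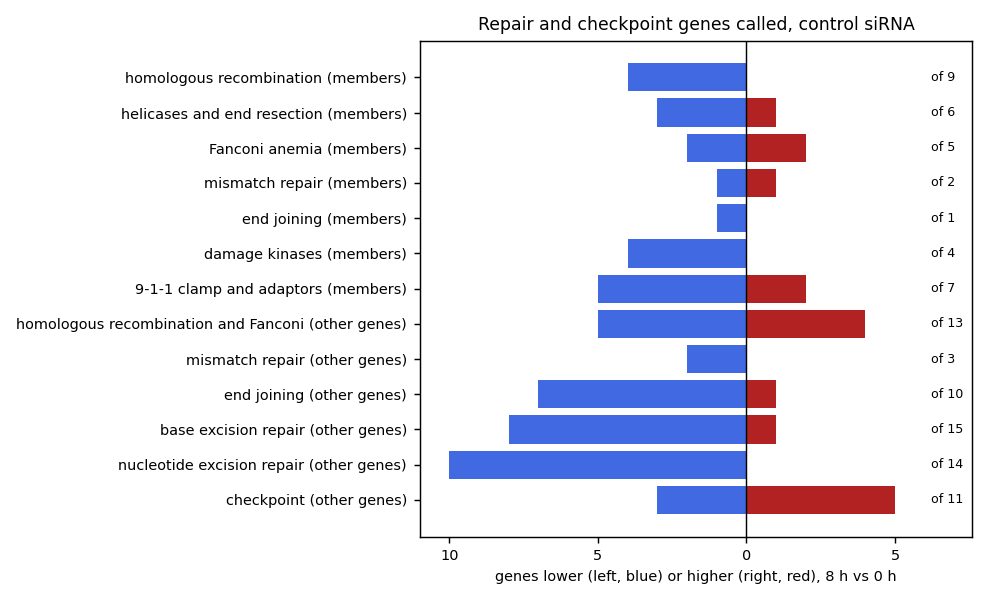
Number of genes called lower (left) and higher (right) at 8 h than at 0 h of OHT in control siRNA cells, for the members by role and for the other repair and checkpoint lists, with the number measured beside each bar. Nucleotide excision repair has 10 of 14 lower, and the other checkpoint genes have 5 of 11 higher.

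With knockdown at 8 h, 5 of the 66 other genes were higher and 1 lower, where 2.71% of all genes were higher and 2.57% lower. The higher ones were RPA2 (0.40, adjusted p = 5.19e-05), the uracil glycosylase UNG (0.34, adjusted p = 0.0247), NTHL1 (0.51, adjusted p = 0.0165), POLB (0.34, adjusted p = 0.00843) and ERCC1 (0.48, adjusted p = 0.000472), a subunit of an excision nuclease, and the lower one was the glycosylase SMUG1 (-0.58, adjusted p = 0.00744). None of the 66 was called for the difference of responses with limma. An unadjusted p under 0.05 was found for 6, and the share of all probe sets under it was not computed.

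Genes of the cell cycle were read in the same arrays. At 8 h against 0 h in control siRNA cells, 34.3% of all genes were lower and 21.1% higher. Of 15 S phase genes, 5 were higher and 5 lower at 8 h than at 0 h in control siRNA cells, with the ribonucleotide reductase subunit RRM2 at 1.50, the primase subunit PRIM1 at -1.02 and the helicase subunit MCM5 at -0.98. Of 15 G2/M genes, 10 were lower and 2 higher, with CENPF at -1.12, CDC20 at -1.50 and AURKB at -1.15, genes of chromosome segregation. For knockdown at 8 h, where 2.71% of all genes were higher and 2.57% lower, 3 S phase genes were higher (MCM3, MCM5 and PRIM1). Of the G2/M genes, 5 were higher, CDC25C most of all (1.42, adjusted p = 2.31e-12), and 4 lower. The part of cell cycle position in the changes of the members was not tested.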

How the data were processed

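RNA of 36 cultures of the U2OS line with ER-HA-E2F1 was hybridised to Affymetrix human expression arrays. The deposited values were MAS5 intensities on a linear scale, made by the authors in Expression Console (version not given in the sources used here) and scaled to a trimmed mean of 500 with 2% trimmed at each end. Depth has no counterpart here, and the number of arrays limits the precision. Control probe sets (62) were left out, and log2 intensities of 22215 probe sets, of which 19064 name 1 gene, 1043 several and 2108 none, were fitted with no offset in limma 3.58.1 (R 4.3.3) as 6 groups of 6 arrays (siRNA arm by time). Tests were two-sided moderated tests with a variance trend, adjusted by Benjamini-Hochberg over all probe sets and called under 0.05, and the fit was tested on simulated data. The simulated arrays held no difference between siRNAs of an arm, so they cannot speak for the knockdown calls with siRNAs pooled. The methods' pooling of siRNAs by arm was kept, and their t-test was run as an alternative.

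The members and the gene lists were chosen with earlier results of these data known. Full values are given for the members with the greatest changes at 8 h of OHT and the smallest adjusted p for knockdown. Of each other list, the 3 genes with the smallest adjusted p at 8 h of OHT and all genes called for knockdown at 8 h are named, and of the cell cycle lists the 3 of each comparison. Other values of members were given beyond this rule so that each is accounted for.

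Replicate numbers did not pair the arrays: deviations of arrays with the same number correlated at 0.014 on average (-0.19 to 0.29). The fit was repeated with 12 groups, with only the groups compared, with siRNA as a random block or a replicate block, and with no variance trend. Values were changed by quantile normalization, by adding 16 before log2, by keeping the 60% brightest probe sets, and by averaging a gene's probe sets. Each siRNA alone, the methods' t-test, and leaving out each replicate number or array were also tried. Promoter sequences came from a RefSeq table (GRCh38.p14), which held windows for 30 members used here.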

Additional observations from a re-analysis of the deposited data

Results flagged for a closer look

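Of 204 groups of 6 arrays (34 members in both arms at 3 times), 8 held an array far from the other 5 by Dixon's test, where chance alone marks about 1 group in 20. In 3 of the 8 groups the far array was the second replicate with Dharmacon NFYB siRNA at 4 h: RAD1 was highest there at 2216 (next 1648), XRCC2 was highest at 112 (next 66.8), and RAD50 was lowest at 191 (next 249). In the remaining group with NFYB siRNA, HUS1 was highest at 8 h in the first Ambion replicate, at 724 (next 552). In control siRNA cells, CHEK1 was lowest at 0 h in the first Dharmacon replicate, at 552 (next 692), and TOPBP1 was highest at 8 h in the first Dharmacon replicate, at 1717 (next 1459). MRE11 was highest at 4 h in the third Sigma replicate, at 572 (next 460.3), and TP53BP1 was highest at 4 h in the first Sigma replicate, at 496 (next 425).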

How the results depend on the processing

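The members called at 8 h against 0 h of OHT numbered 20 to 26 in control siRNA cells and 22 to 27 in NFYB siRNA cells over the alternatives, and those called at 4 h numbered 12 to 21. Leaving out 1 replicate number or 1 array gave 13 to 20 members at 4 h, 24 to 26 at 8 h and 8 to 13 for 8 h against 4 h in control siRNA cells, and 21 to 26 at 8 h with NFYB siRNA. It gave 0 to 5 members for knockdown at 0 h, 0 to 2 at 4 h and 0 to 5 at 8 h. The difference of responses stayed at 0. The lowest counts came from leaving out all 12 arrays of a replicate number. With the replicate block, 18, 26 and 12 members were called for 4 h, 8 h and 8 h against 4 h in control siRNA cells, 26 for 8 h with NFYB siRNA, 4, 1 and 4 for knockdown at 0, 4 and 8 h, and 0 for the difference. MDC1 lost its knockdown call at 8 h under that block (0.43, adjusted p = 0.0504).

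Counts for knockdown, 4 at 0 h, 1 at 4 h and 5 at 8 h, moved most. Quantile normalization and the upper 60% of probe sets each gave 7 at 0 h and 2 at 4 h. Only the groups compared gave 1 at 0 h and 2 at 8 h. The 12-group fit gave 10, 7 and 10 at 0, 4 and 8 h, and 2 for the difference, while siRNA as a random block gave 1, 0 and 2. With 12 groups, 4.99% of all probe sets were higher and 5.29% lower at 4 h, against 1.48% and 1.45% with 6 groups. The shares of the 12-group fit at 0 and 8 h were not computed. The Ambion NFYB siRNA alone gave 2 at 0 h and 1 at 8 h, and the Dharmacon NFYB siRNA alone gave 3 at 4 h and 1 for the difference. The Dharmacon control alone gave 4 at 4 h. The Sigma control alone gave 8, 2 and 2 at 0, 4 and 8 h, and 6 for 8 h against 4 h of OHT. The methods' t-test gave 1 at 0 h and 2 at 8 h on linear signal, and 0, 0 and 2 at 0, 4 and 8 h on log2 signal. Averaging the probe sets of each gene gave 2 at 4 h and reversed MSH6 at 0 h (-0.15, adjusted p = 0.859). The cause of these moves was not tested. The t-test was not run for the difference of responses, which it cannot give.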
